A study of Homo sapiens with 12 samples.

Results

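The expression of 7 genes of cholesterol synthesis and its control, HMGCS1, IDI1, FDFT1, SQLE, DHCR7, INSIG1 and SREBF2, was followed from human embryonic stem cells (hESCs) to blood progenitors. The genes were chosen by symbol, and all 7 were found among the 56593 distinct symbols of a table of 12 RNA-seq libraries. All 7 also passed the filter on low values, which kept 14840 genes for testing. The study compared 4 populations of 3 libraries each. Undifferentiated H1 cells, an established hESC line, received no differentiation agent. APLNR+ mesoderm cells, which carry the apelin receptor, were taken at day 2 of culture in Custom mTeSR1 medium with activin A and BMP4. Medium with VEGF and bFGF followed for 6 days, and gave CD31+CD34+ hemogenic endothelial progenitors (HEPs) at day 5 and CD43+ hematopoietic progenitor cells (HPCs) at day 8. All libraries came from the H1 line, and the labels do not say whether the 3 libraries of a population came from separate cultures, so that the p-values measure the spread between libraries, which may be technical.

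Cells build cholesterol from acetyl-CoA through mevalonate, isoprenoid phosphates, squalene and lanosterol, and the isoprenoids also feed protein prenylation and the synthesis of dolichol and coenzyme Q. When sterols in the endoplasmic reticulum are scarce, the transcription factor SREBP2 (the product of SREBF2) is carried by SCAP to the Golgi, cleaved there and moves to the nucleus, where it activates most genes of the pathway. INSIG proteins hold SCAP back when sterols are plentiful, and INSIG1 is itself a target of SREBP2.

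SREBP2 acts at its targets together with NF-Y, a factor that binds CCAAT, and the stretches of promoter that hold these letters are shown for the members in the RefSeq promoter table (GRCh38.p14), which held 5 of the 7. Each is written 5′ to 3′ on the strand of the gene and lies upstream of the start site, and capitals mark CCAAT, its reverse complement ATTGG, or TCACNCCAC, the letters of the sterol element to which SREBPs bind, where N is any base. HMGCS1, which makes HMG-CoA from acetoacetyl-CoA and acetyl-CoA, is shown from position -175 to -76 (chr5:43313488-43313587, minus strand), IDI1, which makes dimethylallyl diphosphate from isopentenyl diphosphate, from -152 to -63 (chr10:1048949-1049038, minus strand), and DHCR7, which makes cholesterol from 7-dehydrocholesterol, from -114 to -24 (chr11:71448417-71448507, minus strand). INSIG1 is shown from -190 to -146 (chr7:155297688-155297732, plus strand) and SREBF2 from -153 to -82 (chr22:41832952-41833023, plus strand).
HMGCS1: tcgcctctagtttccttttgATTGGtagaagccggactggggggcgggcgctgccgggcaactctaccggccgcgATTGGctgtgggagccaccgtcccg
IDI1: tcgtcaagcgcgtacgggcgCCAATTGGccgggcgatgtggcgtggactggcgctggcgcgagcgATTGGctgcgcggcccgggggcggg
DHCR7: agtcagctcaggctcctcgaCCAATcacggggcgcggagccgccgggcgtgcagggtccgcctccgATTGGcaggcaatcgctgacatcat
INSIG1: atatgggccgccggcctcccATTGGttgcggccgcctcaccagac
SREBF2: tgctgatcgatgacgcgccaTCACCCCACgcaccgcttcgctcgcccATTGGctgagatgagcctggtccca
CCAAT or ATTGG stood in all 5 promoters, against 39.72% of 27305 genes with a promoter window of the same 300 bases, and in IDI1 a match on each strand overlaps in the run CCAATTGG. TCACNCCAC was found in the window of SREBF2 (TCACCCCAC) and not in those of the other 4, against 1.39% of all genes. Of the 22 enzymes of cholesterol synthesis, 17 had a window, and 14 of the 17 held CCAAT or ATTGG while 0 of 17 held TCACNCCAC. For genes with several start sites the window with the most matches is shown. These matches describe letters in a window, not sites of binding.

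Expression is given as FPKM, fragment counts divided by transcript length and by the mapped total, so that levels may be compared between genes per length. Changes are differences of log2(FPKM + 1) with their SE, fitted with limma to all 12 libraries. A gene was called raised or lowered where the change was at least 2-fold and the Benjamini-Hochberg adjusted p under 0.05. FPKM gives no read totals. The spacing of the lowest values placed the depth of replicate 1 of each population between 0.553 and 0.748 times that of CD43+ replicate 3, and of the other libraries between 1.00 and 1.27 times. These depths are rough, since 2.5% to 7.7% of the genes used in a library lay at its most frequent ratio. The genes of the sorted proteins stood as the labels have it, with APLNR at 359 FPKM or more in APLNR+ libraries and 0.688 or less in H1, PECAM1 (CD31) at 50.9 or more and CD34 at 39.8 or more in CD31+CD34+ libraries, and SPN (CD43) at 60.3 or more in CD43+ libraries and 4.20 or less elsewhere. With 3 libraries on each side, the smallest exact permutation p is 0.1.

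The levels of the 7 genes followed 2 patterns. FDFT1, SQLE, DHCR7, INSIG1 and SREBF2 were lowest in H1 and highest in CD31+CD34+ cells, whereas HMGCS1 and IDI1 were highest in APLNR+ cells and lowest in CD43+ cells. Every one of the 7 genes stood above at least 74.4% of the genes tested in every population.

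HMGCS1, which feeds HMG-CoA into the mevalonate arm, measured 80.2, 105 and 101 FPKM in the H1 libraries and 182, 236 and 248 FPKM in the APLNR+ libraries. It measured 139, 168 and 173 FPKM in CD31+CD34+ cells and 51.0, 51.6 and 58.2 FPKM in CD43+ cells. The 4 populations did not overlap, in the order APLNR+ (222 ± 35.1 FPKM, SD, n = 3), CD31+CD34+ (160 ± 18.5), H1 (95.4 ± 13.3) and CD43+ (53.6 ± 4.01), and each neighbouring pair differed (limma adjusted p from 0.000203 to 0.0109). In GENCODE release 29, 703 exonic bases of HMGCS1 lie opposite exons of AC114947.2, an antisense gene listed at 0 FPKM in all 12 libraries.

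IDI1, which supplies the isoprenoid unit from which chain growth starts, started at 48.0, 48.1 and 45.0 FPKM in the H1 libraries and stood at 73.7, 80.1 and 79.2 FPKM in the APLNR+ libraries. It then measured 18.8, 20.2 and 21.4 FPKM in CD31+CD34+ cells and 16.5, 17.4 and 18.3 FPKM in CD43+ cells. APLNR+ cells had the highest values (77.7 ± 3.44 FPKM), H1 cells followed (47.0 ± 1.75), and the later populations lay below both. CD31+CD34+ (20.2 ± 1.29 FPKM) and CD43+ cells (17.4 ± 0.900) did not overlap, but their difference missed the threshold (adjusted p 0.0541). An antisense gene, IDI2-AS1, covers 643 exonic bases of IDI1 and reached at most 0.307 FPKM in a library.

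FDFT1, squalene synthase, which joins a pair of farnesyl diphosphates in the step that commits the pathway to sterols, had the highest level of the 7 per length in H1, CD31+CD34+ and CD43+ cells. Its values were 152, 129 and 121 FPKM in the H1 libraries, 171, 163 and 156 FPKM in mesoderm, 366, 386 and 360 FPKM in CD31+CD34+ cells and 180, 186 and 171 FPKM in CD43+ cells. CD31+CD34+ cells (371 ± 13.7 FPKM) lay above the other 9 libraries and H1 cells (134 ± 16.1) below them. APLNR+ (163 ± 7.94) and CD43+ cells (179 ± 7.44) overlapped and did not differ beyond their spread (adjusted p 0.222).

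SQLE, squalene epoxidase, which adds the oxygen that sterols keep and is a rate-controlling step, varied least between populations among the enzymes of the 7. The H1 libraries held 43.4, 43.3 and 42.9 FPKM, mesoderm 56.7, 58.6 and 59.6 FPKM, and later values were 71.5, 77.7 and 76.3 FPKM in CD31+CD34+ cells and 50.5, 53.5 and 56.5 FPKM in CD43+ cells. CD31+CD34+ cells (75.2 ± 3.29 FPKM) were again highest and H1 cells (43.2 ± 0.278) lowest, with no overlap with the other libraries. APLNR+ (58.3 ± 1.45) and CD43+ cells (53.5 ± 2.97) stood next to each other in the order without a detectable difference (log2 change -0.12 ± 0.07, adjusted p 0.149).

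DHCR7, the enzyme of the final reduction to cholesterol, measured 19.7, 21.1 and 20.5 FPKM in the H1 libraries and 41.2, 48.9 and 42.1 FPKM in mesoderm. It reached 78.7, 103 and 99.4 FPKM in CD31+CD34+ cells and lay at 31.8, 42.6 and 46.9 FPKM in CD43+ cells. The mean of CD31+CD34+ cells (93.9 ± 13.3 FPKM) was 4.59 times that of H1 cells (20.5 ± 0.708), the widest span of the 5 genes that were lowest in H1. APLNR+ (44.0 ± 4.20) and CD43+ cells (40.4 ± 7.79) overlapped (adjusted p 0.413).

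INSIG1, the sterol-sensing anchor of SCAP, moved over nearly the same span as DHCR7 with a smaller spread between libraries. It was at 17.8, 16.7 and 17.0 FPKM in the H1 libraries, at 44.1, 45.5 and 45.1 FPKM in mesoderm, and then at 80.3, 78.1 and 74.5 FPKM in CD31+CD34+ cells and 50.2, 47.9 and 53.9 FPKM in CD43+ cells. No population overlapped another. The means were 17.2 ± 0.569, 44.9 ± 0.711, 77.6 ± 2.89 and 50.7 ± 3.00 FPKM, and only the difference between APLNR+ and CD43+ cells missed the threshold among neighbours in this order (adjusted p 0.0563).

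SREBF2, the gene of the transcription factor itself, had the widest relative spread within populations. It measured 19.2, 29.7 and 29.4 FPKM in the H1 libraries, 30.2, 41.6 and 37.9 FPKM in mesoderm, 50.9, 72.7 and 71.9 FPKM in CD31+CD34+ cells and 39.1, 60.3 and 57.2 FPKM in CD43+ cells. The means ran from H1 (26.1 ± 5.96 FPKM) through APLNR+ (36.6 ± 5.79) and CD43+ (52.2 ± 11.5) to CD31+CD34+ cells (65.2 ± 12.4), and none of the 3 neighbouring pairs in this order passed the threshold (adjusted p 0.0708, 0.0551 and 0.226). CD31+CD34+ and CD43+ cells both lay above H1 cells without overlap (adjusted p 0.000127 and 0.00123).

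Replicate 1 was the lowest library in each of the 4 populations for SREBF2, HMGCS1 and DHCR7, which held for 18.7% of all genes tested. By the spacing of the lowest values it was also the shallowest library of each population, and the part of depth in these values was not tested. With replicates 2 and 3 alone, the change of SREBF2 was 0.41 from H1 to APLNR+ cells (adjusted p 0.00178), 0.85 from APLNR+ to CD31+CD34+ cells (adjusted p 1.89e-05) and -0.29 from CD31+CD34+ to CD43+ cells (adjusted p 0.00926), all still under 2-fold.

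**Figure D1:**
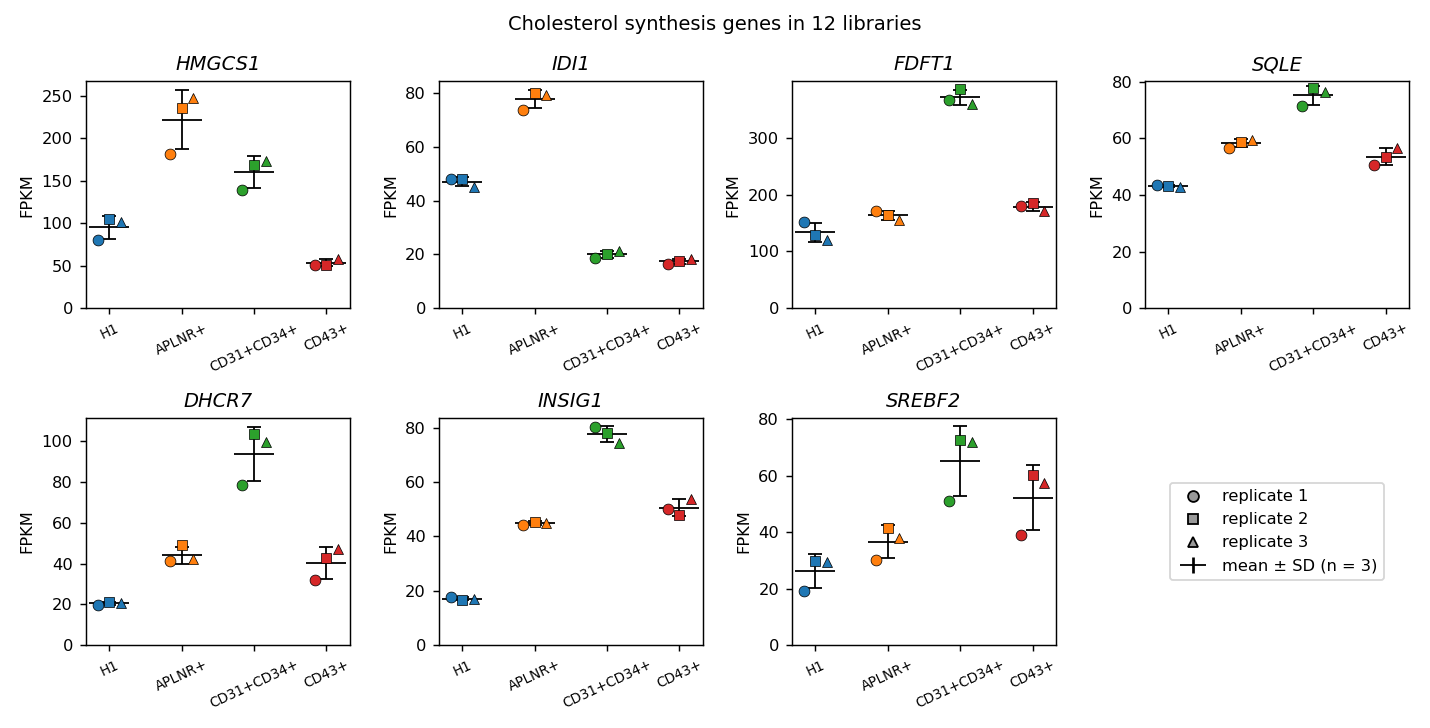
Level of each of the 7 genes in FPKM (vertical axis, from 0, its own range for each gene) in the 12 libraries, by population. Symbols give the replicate number, and black lines the mean and SD of 3 libraries. FDFT1, SQLE, DHCR7, INSIG1 and SREBF2 are highest in CD31+CD34+ cells, HMGCS1 and IDI1 in APLNR+ cells, and IDI1 is low (16.5 to 21.4 FPKM) in the 6 libraries of the later populations.

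The first comparison asks which genes change as hESCs become mesoderm. From H1 to APLNR+ cells, 3 of the 7 genes were raised and 0 lowered, where 8.3% of all 14840 genes tested were raised and 7.62% lowered. INSIG1 rose by 1.34 ± 0.07 on the log2 scale (2.62-fold between the means, adjusted p 1.88e-08). HMGCS1 rose by 1.21 ± 0.14 (2.33-fold, adjusted p 1.55e-05). DHCR7 rose by 1.07 ± 0.14 (2.15-fold, adjusted p 5.1e-05), although without APLNR+ replicate 2 its change was 0.99 and no longer reached 2-fold. The 3 APLNR+ libraries lay above the 3 H1 libraries for each of the 7 genes, though for SREBF2 only by 30.2 against 29.7 FPKM. The share of all genes tested with such a separation was not counted, so this is a description only. IDI1 (0.71 ± 0.08, adjusted p 1.09e-05), SQLE (0.42 ± 0.07, adjusted p 0.000369) and FDFT1 (0.29 ± 0.09, adjusted p 0.0174) were higher in APLNR+ cells by less than 2-fold, and SREBF2 (0.48 ± 0.21, adjusted p 0.0708) did not pass the test. The median change of the 7 was 0.71, beside -0.12 for all genes tested.

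The second comparison follows mesoderm to hemogenic endothelium. From APLNR+ to CD31+CD34+ cells the 7 genes parted: FDFT1 and DHCR7 were raised, IDI1 was lowered, and the other 4 changed by less than 2-fold. All-gene shares were 12.5% raised and 17.1% lowered. IDI1 fell by 1.90 ± 0.08 on the log2 scale (adjusted p 1.56e-09), from 77.7 to 20.2 FPKM. FDFT1 rose by 1.18 ± 0.09 (2.27-fold, adjusted p 3.08e-07) and DHCR7 by 1.07 ± 0.14 (2.13-fold, adjusted p 2.83e-05). Their calls sat close to the 2-fold limit: quantile normalization gave 0.99 for FDFT1 and 0.86 for DHCR7, and DHCR7 had 0.99 without CD31+CD34+ replicate 2. SREBF2 (0.81 ± 0.21, adjusted p 0.00452), INSIG1 (0.78 ± 0.07, adjusted p 1.52e-06) and SQLE (0.36 ± 0.07, adjusted p 0.000761, but 0.13 and 0.0839 after quantile normalization) were higher in CD31+CD34+ cells. HMGCS1 was lower (-0.46 ± 0.14, adjusted p 0.0109). The median change of the 7 was 0.78, beside -0.01 for all genes tested.

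The third comparison follows hemogenic endothelium to blood progenitors, the endothelial-to-hematopoietic transition. From CD31+CD34+ to CD43+ cells, 3 of the 7 genes were lowered and 0 raised, beside 8.79% and 5.58% of all genes tested. HMGCS1 fell by 1.56 ± 0.14 on the log2 scale (adjusted p 1.93e-06), from 160 to 53.6 FPKM. DHCR7 fell by 1.20 ± 0.14 (adjusted p 2.13e-05) and FDFT1 by 1.05 ± 0.09 (adjusted p 1.7e-06). INSIG1 (-0.61 ± 0.07, adjusted p 2.62e-05) and SQLE (-0.48 ± 0.07, adjusted p 0.000149) were lower by less than 2-fold. IDI1 (-0.20 ± 0.08, adjusted p 0.0541) and SREBF2 (-0.32 ± 0.21, adjusted p 0.226, with overlapping libraries) did not pass the test. The median change of the 7 was -0.61, beside -0.01 for all genes tested.

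The fourth comparison set CD43+ HPCs against the H1 cells they derive from, and 1 of the 7 genes was raised (all genes tested, 14.6%) and 1 lowered (22.5%). INSIG1 stood 2.95-fold higher in CD43+ cells (log2 change 1.51 ± 0.07, adjusted p 2.55e-09) and IDI1 fell by 1.38 ± 0.08 on the log2 scale (adjusted p 1.09e-08). DHCR7 (0.93 ± 0.14, adjusted p 7.57e-05) and SREBF2 (0.97 ± 0.21, adjusted p 0.00123) were just under 2-fold. Both passed it under upper-quartile scaling (1.04 and 1.08) or without CD43+ replicate 1 (1.09 and 1.17). Removal of the trend with GC content, described below, gave the smaller changes of 0.58 for DHCR7 and 0.64 for SREBF2. FDFT1 (0.43 ± 0.09, adjusted p 0.00126) and SQLE (0.30 ± 0.07, adjusted p 0.00255) were higher in CD43+ cells and HMGCS1 (-0.81 ± 0.14, adjusted p 0.000203) lower. The comparisons share libraries, and the median of all genes in this one was -0.10 as deposited and 0.02 after quantile normalization.

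**Figure D2:**
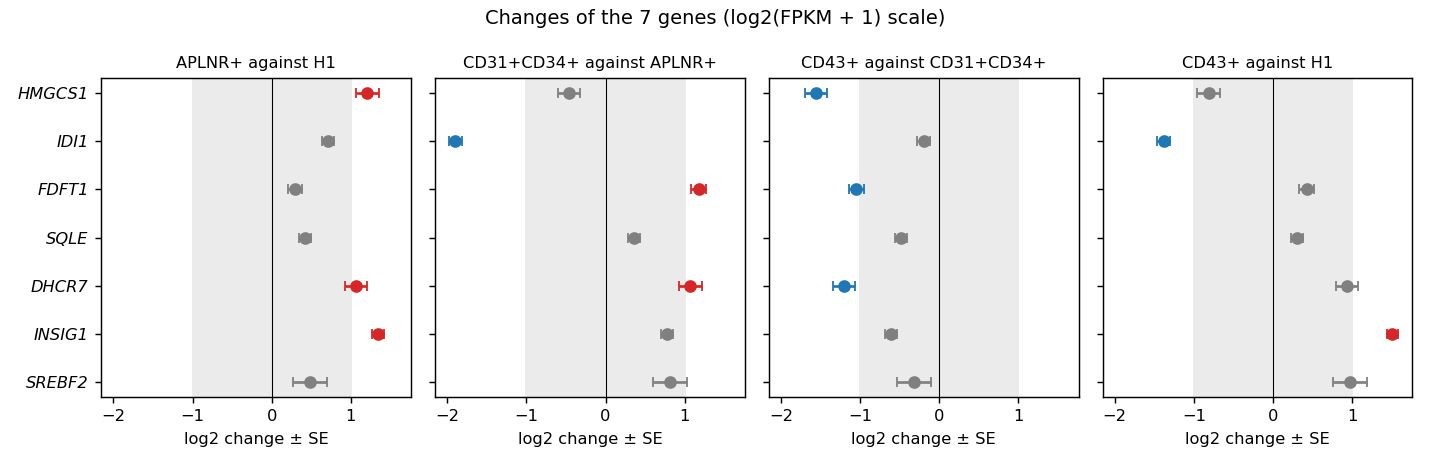
Change of each of the 7 genes in the 4 comparisons, as the difference of log2(FPKM + 1) with its SE from limma (horizontal axis). Red points were raised, blue points lowered and grey points not called, and the grey band spans changes under 2-fold. Called changes number 3, 3, 3 and 2 from left to right, and HMGCS1 and IDI1 lie left of zero in 3 of the 4 panels.

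The 7 genes differ in the base composition of their transcripts, which the choice of genes did not use, and the second comparison moved with it across the whole table. GC content of the longest GENCODE transcript was 40.2% for HMGCS1 and 41.1% for IDI1, both in the lowest quintile of all genes tested. It was 46.0% for INSIG1, 46.5% for SQLE and 48.6% for FDFT1 in the middle quintile, 57.1% for SREBF2 in the next and 58.3% for DHCR7 in the highest. From APLNR+ to CD31+CD34+ cells the median change of all genes ran from -0.89 in the lowest quintile through -0.44, 0.05 and 0.44 to 0.62 in the highest, and 43.6% of genes in the lowest quintile were lowered while 28.1% of those in the highest were raised. The medians spanned less from H1 to APLNR+ cells, from -0.21 to -0.04, and ran the other way from CD31+CD34+ to CD43+ cells, from 0.19 to -0.26.

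When this trend was removed from each library, an alternative added after the data had been seen, the second comparison changed for 3 of the 7 genes. HMGCS1 turned from -0.46 to 0.32 ± 0.08 (adjusted p 0.00544), and CD31+CD34+ cells became its highest population. DHCR7 went from 1.07 to 0.49 ± 0.14 (adjusted p 0.00732) and was no longer called, and SREBF2 from 0.81 to 0.27 ± 0.21 (adjusted p 0.274). IDI1 remained lowered (-1.20 ± 0.06, adjusted p 1.64e-08) and FDFT1 raised (1.13 ± 0.10, adjusted p 1.73e-06), and INSIG1 (0.96 ± 0.08) and SQLE (0.49 ± 0.05) were still higher by less than 2-fold. The 3 genes raised from H1 to APLNR+ cells kept their calls, at 1.45 for INSIG1, 1.36 for HMGCS1 and 1.10 for DHCR7. The 3 lowered from CD31+CD34+ to CD43+ cells kept theirs as well, at -1.71 for HMGCS1, -1.05 for FDFT1 and -1.01 for DHCR7. Against H1, CD43+ cells had a change of -0.67 for IDI1, which was no longer called, of -0.03 for HMGCS1 (adjusted p 0.799) and of 1.73 for INSIG1, which was. Over all genes, that comparison had 2163 raised and 3338 lowered as deposited and 2172 and 2224 after the correction.

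**Figure D3:**
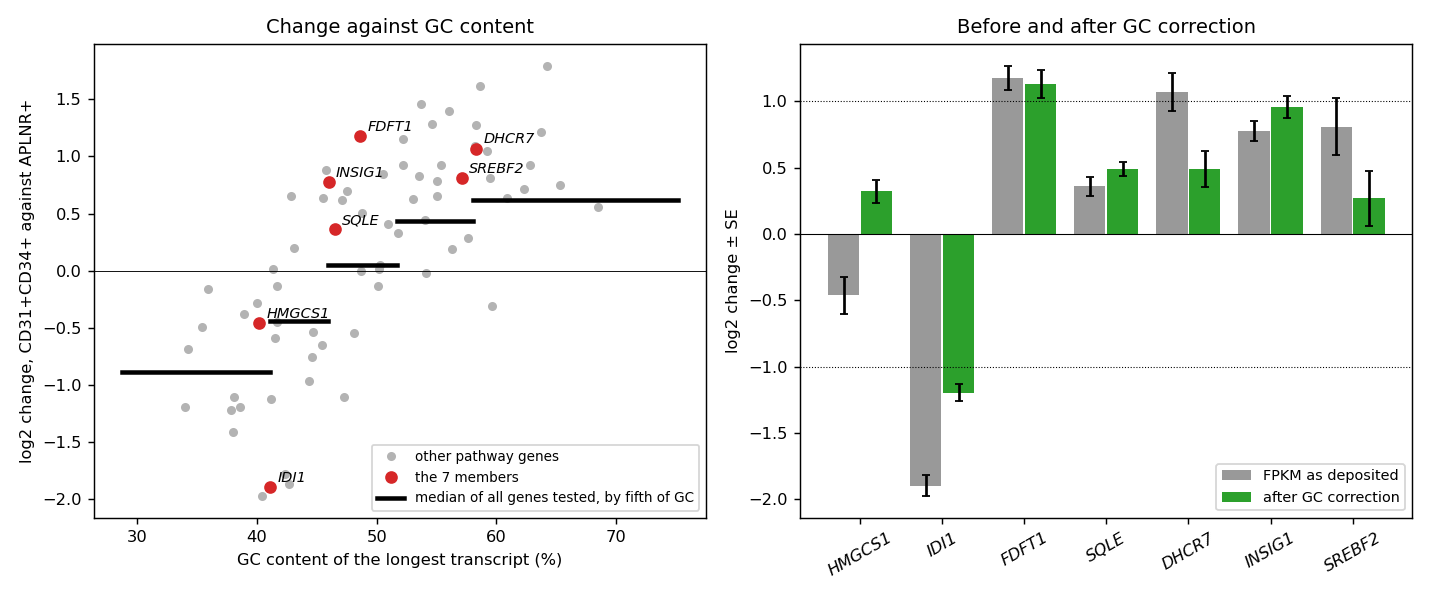
Left, change from APLNR+ to CD31+CD34+ cells (difference of log2(FPKM + 1)) against the GC content of the longest transcript for the 7 genes (red) and the other pathway genes (grey), with the median of all genes tested in each quintile of GC content (black lines). Right, the change of the 7 genes with its SE as deposited (grey bars) and after the GC trend was removed (green bars), with dotted lines at 2-fold. IDI1 stays below and FDFT1 above the 2-fold lines, DHCR7 drops under its line, and HMGCS1 turns from -0.46 to 0.32.

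The other genes of the pathway were taken from 9 lists with 75 distinct genes, the 7 included, of which 72 could be tested (MARCH6 was not found under that symbol, and SOAT2 and CH25H were too low). In the 4 comparisons in the order above, 17, 12, 1 and 13 of them were raised and 3, 10, 16 and 8 lowered. Raised genes made up 23.6%, 16.7%, 1.39% and 18.1% of the 72, beside 8.3%, 12.5%, 5.58% and 14.6% of all genes tested. Lowered genes made up 4.17%, 13.9%, 22.2% and 11.1%, beside 7.62%, 17.1%, 8.79% and 22.5%. In the change from mesoderm to HEPs both shares lay near those of all genes. Their medians were 0.39, 0.34, -0.32 and 0.31. The 22 enzymes that lead from acetoacetyl-CoA to cholesterol stood at 7 raised and 0 lowered, 7 and 4, 0 and 10, and 2 and 1, with medians of 0.73, 0.44, -0.84 and 0.36. Of the 22, 13 had their highest mean in CD31+CD34+ cells, 8 in APLNR+ cells, 1 in CD43+ cells and 0 in H1.

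In the mevalonate arm, 4 of 8 genes were raised from H1 to APLNR+ cells. MVK, mevalonate kinase, rose most there (1.25, adjusted p 9.1e-07), from 7.48 ± 0.734 to 19.2 ± 2.03 FPKM. From APLNR+ to CD31+CD34+ cells 3 of 8 were raised, FDPS, farnesyl diphosphate synthase, most of all (1.39, adjusted p 5.1e-08), from 325 ± 18.9 to 854 ± 40.7 FPKM, and IDI1 alone was lowered. From CD31+CD34+ to CD43+ cells 6 of 8 were lowered, with HMGCS1 the largest fall.

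Between squalene and lanosterol, FDFT1 and LSS, lanosterol synthase, were raised from APLNR+ to CD31+CD34+ cells and lowered from there to CD43+ cells, and SQLE was called in neither. LSS averaged 37.1 ± 1.77, 65.9 ± 6.09, 161 ± 9.90 and 54.6 ± 5.56 FPKM along the series, with changes of 1.28 (adjusted p 2.3e-07) and -1.55 (adjusted p 8.4e-08). In the remaining steps to cholesterol, 3 of 11 genes were raised from H1 to APLNR+ cells, led by NSDHL, a sterol dehydrogenase (1.15, adjusted p 1e-05), with DHCR7 beside it. From APLNR+ to CD31+CD34+ cells 2 were raised and 3 lowered. The largest changes there were those of TM7SF2 (1.79, adjusted p 1.5e-08) and LBR (-1.22, adjusted p 1.4e-06), which carry the same sterol reductase activity. TM7SF2 went from 15.0 ± 1.20 to 54.5 ± 3.82 FPKM and LBR from 29.8 ± 1.46 to 12.2 ± 0.522 FPKM. DHCR7 had the largest fall of this group from CD31+CD34+ to CD43+ cells, where 2 of 11 were lowered.

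After GC correction the second comparison called 11 pathway genes, 6 raised (8.33% of 72) and 5 lowered (6.94%), where the deposited values called 22. Of the 14593 genes that could be corrected, 9.11% were then raised and 10.1% lowered. TM7SF2 was still called, while FDPS (0.89), LSS (0.70) and LBR (-0.30) were no longer called, nor was STARD3 (0.45), which is described with its list. Reads of CYP51A1, ACAT2, FNTB, GGPS1 and HSD17B7 are uncertain, since 88.9%, 67.7%, 58.0%, 28.0% and 17.3% of the 50-base words of their transcripts also occur in transcripts of other genes. NUS1 and PDSS1 stood at 14.1% and 12.2%. Among the 7 members, HMGCS1 stood at 17.5%, shared with AC114947.2, the antisense gene listed at 0 FPKM. In FDPS 18.6% of exonic bases lie opposite the antisense gene RUSC1-AS1.

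**Figure D4:**
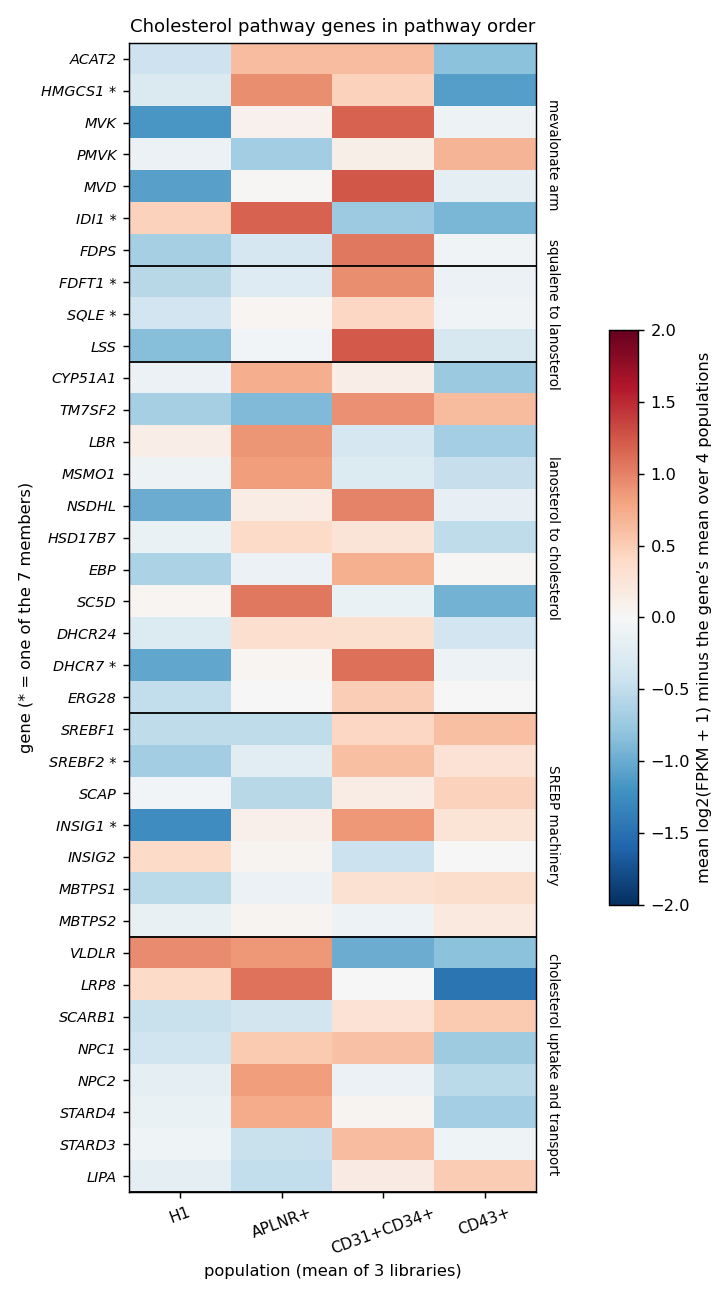
Mean log2(FPKM + 1) of each population minus the mean of the gene over the 4 populations (color, red above and blue below) for synthesis enzymes in pathway order and for genes of the SREBP machinery and of cholesterol uptake and transport. An asterisk marks the 7 genes. IDI1 is blue in CD31+CD34+ cells, where FDPS, FDFT1, SQLE and LSS, the steps that follow it, are red.

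Of the SREBP machinery, INSIG1 alone was raised from H1 to APLNR+ cells, 0 of 7 genes were called in the second and the third comparison, and INSIG1 and SREBF1 (1.11, adjusted p 9e-07) were raised in CD43+ against H1 cells. After GC correction SREBF1 (0.76) was no longer called there. SCAP, the escort that INSIG1 retains, averaged 24.1 ± 0.447, 16.8 ± 1.45, 28.1 ± 1.10 and 35.1 ± 3.40 FPKM along the series. INSIG2, the paralog of INSIG1, averaged 2.55 ± 0.526, 1.83 ± 0.389, 1.01 ± 0.340 and 1.70 ± 0.441 FPKM, and per length it stayed below INSIG1 in every population. Among genes of sterol-driven protein degradation, MYLIP, a ubiquitin ligase induced by LXR, was lowered in the first comparison (-1.13, adjusted p 9.5e-07).

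Of 10 genes of cholesterol uptake and transport, 2 were raised and 0 lowered in the first comparison, 1 and 2 in the second, 0 and 3 in the third and 1 and 3 in the fourth. VLDLR, a lipoprotein receptor, fell by 1.86 in the second comparison (adjusted p 1.3e-07), where STARD3, a sterol carrier of late endosomes, rose by 1.05 (adjusted p 6e-05; 0.95 without APLNR+ replicate 1). On the side of efflux and oxysterols, CYP27A1, sterol 27-hydroxylase, rose by 3.16 from H1 to APLNR+ cells (adjusted p 4.1e-10) and fell by 2.18 in the third comparison (adjusted p 1.7e-08). ABCA1, which exports cholesterol, was the only gene of the 72 raised from CD31+CD34+ to CD43+ cells as deposited (1.15, adjusted p 1e-06), from 3.64 ± 0.101 to 9.28 ± 0.670 FPKM. After GC correction FNTB, on the list of the isoprenoid branch, was raised there too, just over 2-fold (1.003). ACAT1, counted on the list of ABCA1, encodes an acetyl-CoA acetyltransferase and not a sterol acyltransferase. It fell by 1.78 in the second comparison (adjusted p 1.2e-08).

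The isoprenoid branch, which draws on the product of IDI1 and FDPS, had 0 genes raised and 3 of 9 lowered from APLNR+ to CD31+CD34+ cells. GGPS1, geranylgeranyl diphosphate synthase, had the largest fall (-1.97, adjusted p 1.9e-06), from 14.1 ± 1.71 to 2.91 ± 1.00 FPKM, and its call remained after GC correction. The other lowered genes lost theirs, as NUS1 went from -1.41 to -0.50 and PGGT1B from -1.19 to -0.10. GGPS1 shares sequence with TBCE and FNTB with a CHURC1-FNTB readthrough, so both values are uncertain. PDSS2 was lowered from H1 to APLNR+ cells (-1.20, adjusted p 0.01), and FNTB was raised in CD43+ against H1 cells (1.63, adjusted p 4.9e-08). Among genes of fatty acid synthesis, 4 of 10 were raised from H1 to APLNR+ cells, led by ACSS2, which makes acetyl-CoA from acetate (2.54, adjusted p 6.2e-10). ACSS2 averaged 6.03 ± 0.452, 39.8 ± 2.12, 98.2 ± 6.18 and 27.4 ± 2.85 FPKM, again highest in CD31+CD34+ cells, and had the largest fall of its list from there to CD43+ cells (-1.81, adjusted p 1.9e-08). FADS2 rose most from APLNR+ to CD31+CD34+ cells (1.61, adjusted p 5.3e-06).

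In CD43+ against H1 cells, INSIG1 and IDI1 thus stood beside further called genes of the pathway. Among the largest rises of the lists were those of MVK (1.06), TM7SF2 (1.29), INSIG1, ABCA1 (1.22), FNTB and ACSS2 (2.01), and among the largest falls those of IDI1, ACAT1 (-1.17) and GGPS1 (-1.82). After GC correction MVK (0.71), TM7SF2 (0.95) and ACAT1 (-0.57) were no longer called in this comparison, and neither was IDI1, and without H1 replicate 3 MVK had 0.98.

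Across the 12 libraries, which fall into 4 populations and share their differences, the members' log2 levels divided only in part in the same way. Pearson's r was highest for SQLE with DHCR7 (0.991) and was at least 0.740 for every pair among FDFT1, SQLE, DHCR7, INSIG1 and SREBF2. IDI1 had negative values with these 5, down to -0.647 with SREBF2, and 0.612 with HMGCS1. HMGCS1, however, had positive values with the same 5, from 0.0568 with SREBF2 to 0.493 with SQLE. Among 8590 genes with a mean of at least 5 FPKM, the profiles most like the mean profile of the 7 were those of AMOTL1 (r 0.989), PINK1 (0.984), AHCYL1 (0.982), ANXA2 (0.982) and ELK3 (0.980). ANXA2 ranged from 66.0 to 382 FPKM over the libraries, lowest in H1 and highest in CD31+CD34+ cells.

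Summed levels of proliferation genes and of genes listed as endoderm markers differed along the series too. The summed level of 10 proliferation genes was 498 to 508 FPKM in H1, 488 to 536 in mesoderm, 355 to 415 in HEPs and 222 to 265 in HPCs. From mesoderm to HEPs 0 of the 10 were raised and 4 lowered, among them CDK1 (86.3 to 14.3 FPKM) and TOP2A (41.8 to 7.30 FPKM). Means of 4 were higher in HEPs without a call, among them AURKB (54.5 to 72.7 FPKM) and PLK1 (27.5 to 42.5 FPKM). The summed level of 10 endoderm markers was 10.4 to 11.7 FPKM in H1, 2190 to 2322 in mesoderm (CER1 alone 2167 to 2301), 56.1 to 66.6 in HEPs and 25.8 to 28.97 in HPCs. Without CER1 the other 9 summed to 8.78 to 9.62 FPKM in H1, 20.01 to 22.76 in mesoderm, 54.6 to 64.2 in HEPs and 24.7 to 28.9 in HPCs, so this sum too was highest in HEPs. From mesoderm to HEPs 3 of the 7 endoderm markers that could be tested were raised and 1 lowered. The raised genes were HHEX (means of 0.797 and 19.0 FPKM), APOA1 (1.40 and 10.97 FPKM) and HNF4A (0.102 and 1.25 FPKM). SOX17 averaged 17.5 and 24.2 FPKM, a change of less than 2-fold. SOX17 and HHEX had the largest means of the 9 in HEPs, and which cells expressed them was not tested. ALB stayed under 0.1 FPKM and FOXA2 under 1 FPKM in all 12 libraries. The part of these in the levels of the 7 genes was not tested, and in sorted bulk samples a larger share of cells that express a gene and more RNA per cell cannot be told apart.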

How the data were processed

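RNA-seq was run on 12 libraries, whose groups and replicate numbers come from their titles. Per the labels, Trizol was used to extract RNA and an Illumina TruSeq kit to build libraries. Sequencing was done by BGI and Novogene, and no source says which company ran which library. The authors deposited a table of FPKM values, a column per library. The submitters' processing notes name BWA, Bowtie and RSEM and the build hg19, with no role, version or annotation, and counting by strand is not stated. The table names genes by symbol alone, so no coordinates come from it, and those of promoters are of GRCh38.p14. Of 58366 lines, 1 held text and was left out. Where a symbol stood on several lines, that of highest mean was used.

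Values were taken as log2(FPKM + 1), and genes at 1 FPKM in at least 3 libraries entered (14840). limma 3.58.1 (R 4.3.3; lmFit, contrasts.fit, eBayes with trend) was fitted to all 12 libraries with 4 group means and no covariates, with Benjamini-Hochberg adjustment over all genes of each comparison. Changes on this scale are understated for low genes. FPKM are not counts, and no count test was made. Depth relative to CD43+ replicate 3 is the most frequent ratio of values between 0.0001 and 0.2 FPKM, and the absolute depth is unknown. GC content is that of the longest GENCODE release 29 transcript (98.3% of genes tested, 72 of 72 pathway genes), and its trend was removed per library with lowess (span 0.3). Overlaps and words of 50 bases shared with other genes came from the same release.

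The 7 genes and the lists were chosen with earlier results of these data known, and the lists were written from general knowledge. Besides the 7, the genes named were, in each list and comparison, the called gene with the largest rise and that with the largest fall at 5 FPKM or more in the higher population, and the 5 most similar profiles. A few genes that this rule names are not reported here. SCAP, INSIG2, SREBF1, NUS1 and PGGT1B were added after their values were seen. The fit was tested on simulated data. Each result was recomputed with quantile normalization, upper-quartile scaling, no filter, a pseudocount of 0.1, a filter at a mean of 5 FPKM, no minimum change, eBayes without trend, only the 2 groups compared, a replicate block, replicates 2 and 3 alone, each library left out and, added after the data were seen, the GC correction. Python 3.11.15 with numpy 2.4.6, pandas 2.3.3 and matplotlib 3.10.9 read the table and drew the figures.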

Additional observations from a re-analysis of the deposited data

How the results depend on the processing

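Of 448 changes of the 7 genes recomputed under the alternatives, 433 kept their direction and their side of the threshold, 6 lost a call, 8 gained one and 1 reversed: HMGCS1 from APLNR+ to CD31+CD34+ cells, at 0.32 after GC correction. The replicate block, eBayes without trend, the other filters and only the 2 groups compared leave the log2 change as it is. Under these settings only the adjusted p could alter a call, so the number kept is partly set by the choice of alternatives. A change under 2-fold that lost its adjusted p counted as kept, as for SREBF2 from APLNR+ to CD31+CD34+ cells after GC correction (0.27, limma adjusted p 0.274). With no minimum change, 6, 7, 5 and 7 of the 7 genes and 50, 58, 46 and 62 of the 72 pathway genes tested were called in the 4 comparisons in the order of the report. Of all 14840 genes tested, 8594, 10948, 7961 and 11076 were then called, so this setting called most genes in every comparison. Quantile normalization left 1 of the 7 called from APLNR+ to CD31+CD34+ cells. In CD43+ against H1 cells, upper-quartile scaling called 4 and GC correction 1, and leaving out a library in turn gave 2 to 4 (4 without CD43+ replicate 1). After GC correction 11 pathway genes were called from APLNR+ to CD31+CD34+ cells. The cause of these changes was not tested, beyond the lower or higher limit that a minimum change sets. Of 525 recomputed changes of the other pathway genes named by the rule, 513 kept their call and 12 lost it.

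By the criterion that every pair correlate over 0.1, the replicate numbers did not pair the samples: deviations of same-numbered libraries correlated at -0.021 to 0.429, with 12 of 18 pairs over 0.1 (all 6 between replicates 1, at 0.196 to 0.429), and 6 of 12 libraries were closest to their own number. With the replicate block 3, 3, 3 and 2 of the 7 genes were called, as without it, and SREBF2 from H1 to APLNR+ cells had an adjusted p of 6.25e-05. From CD31+CD34+ to CD43+ cells the block gave IDI1 an adjusted p of 0.0179 and SREBF2 0.00114, against 0.0541 and 0.226 without it, both under 2-fold. With 3 libraries in each population and an unknown depth, changes of genes near 1 FPKM are the least certain.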
